A study of Mus musculus with 19 samples.

Results

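Cytotoxic lymphocytes kill other cells through a small set of effector genes, and 10 of them are described here as they were measured in blood leukocytes of mice given CAWS, a water-soluble preparation from Candida albicans that holds mannoprotein and β-glucan and induces vasculitis. The genes were chosen by name, as every non-control probe whose gene name on the array was Ifng, Gzma, Gzmb, Gzmk, Gzmm, Prf1, Nkg7, Klrg1, Ctsw or Fasl. These 10 genes, of 27745 gene names on the array, were represented by 13 probes.

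Male DBA/2 mice, in which this vasculitis can be lethal, and male B6 mice, in which it is milder, received CAWS by intraperitoneal injection on consecutive days, and 0 w is the time right after the last injection. All groups had thus been given CAWS, no group of untreated mice was analysed here, and the later samples came from mice that had survived. Leukocytes were captured from whole blood on LeukoLOCK filters, and their total RNA was hybridized to single-color Agilent arrays. Blood was taken from both strains at 0 w and after 2, 4, 8 or 9 weeks, which gave 10 groups and 18 samples. The B6 groups at 2 w and 9 w had 1 sample each and the other 8 groups had 2. The labels do not give the age of the mice in each group. The labels name the samples of a group as biological replicates, and per the study's methods each array received RNA of an individual mouse.

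Cytotoxic T cells and NK cells store perforin and the granzymes, a family of serine proteases, in granules that they release onto a target cell. Perforin opens the membrane of the target, and the granzymes that enter through it start cell death. The same cells display Fas ligand, which kills through a receptor on the target, and secrete interferon-γ, the product of Ifng, which activates macrophages.

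The signals below are the intensities of the scanner software, scaled so that the 75th percentile of each array was equal, and brought back to a common level of 374. Changes are on the log2 scale with their SE, from a limma fit over 22939 probes with p-values adjusted by the Benjamini-Hochberg method, and a gene is called where its adjusted p was under 0.05. Each gene is given by its main probe, the one with the highest mean signal. The main probes of 9 genes were well above background in all 18 samples. Gzmk, a granzyme of memory T cells, was well above background in 0 of 18 samples, with scaled signals between 1.47 and 6.66, and it was not tested, so the counts below are of 9 genes.

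From 33.9% to 51.4% of the 43379 spots of an array were well above background. The SD of the log2 difference over the 11536 probes well above background on every array was 0.238 between 2 arrays of 1 RNA, between 0.203 and 0.263 for the B6 pairs, and between 0.316 and 0.412 for the DBA/2 pairs. The B6 pairs thus differed about as little as 2 arrays of the same RNA, and the p-values measure only the spread between these samples. The DBA/2 samples from 0 w to 8 w lay on 1 slide for each replicate number, while the DBA/2 samples at 9 w and all B6 samples lay on other slides. The array of DBA/2 9 w replicate 2 had 1187 outlier spots, against 64 to 180 on the others. Slide and week cannot be told apart for DBA/2 mice at 9 w, and slide and strain cannot be told apart where the strains are compared at 1 time.

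**Figure D1:**
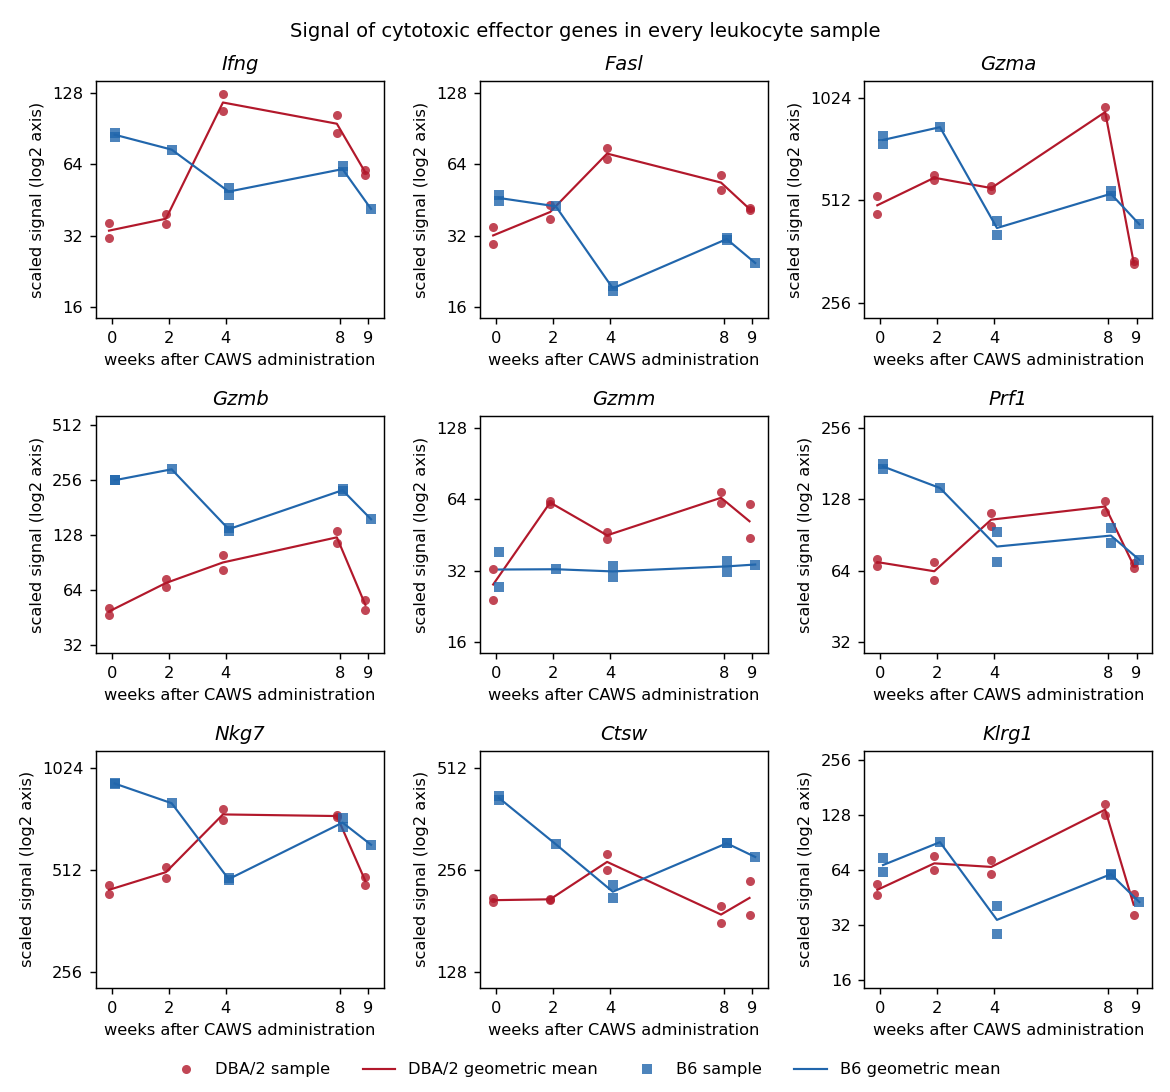
Scaled signal (log2 axis) of the 9 tested genes against weeks after CAWS administration, with a point for each sample (DBA/2 circles, B6 squares) and lines through the geometric means. Among the DBA/2 samples, Ifng and Fasl were highest at 4 w, and Gzma, Gzmb and Klrg1 at 8 w, where Gzma reached 897 and 964 against 466 and 525 at 0 w.

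In DBA/2 mice most of the tested cytotoxic effector genes were called higher 8 w after CAWS administration than at 0 w, and Ctsw was called higher at no time. At 2 w 2 of 9 genes were higher than at 0 w, where 7.90% of all tested probes were called higher. With the slide as a block, which for these samples was also the replicate number, 4 of the 9 genes were called at 2 w. At 4 w 5 of 9 were higher, against 7.58% of all probes, and at 8 w 8 of 9 were higher, against 10% of all probes. The median change of the 9 genes was 0.69 at 4 w and 0.91 at 8 w, beside -0.10 and -0.18 over all probes tested. At 9 w 3 of 9 were higher than at 0 w and 1 was lower, against 13.4% and 14.3% of all probes. Compared with 8 w, 6 of 9 were lower at 9 w, against 6.75% of all probes. These comparisons with 0 w share the same 2 control samples. With normexp background correction all 9 genes kept their direction at 4 w and 8 w, but 1 of 9 was called at 4 w and 2 of 9 at 8 w. Of all 22939 probes 262 were then called higher at 4 w and 470 at 8 w, against 1739 and 2298 in the main fit. The rise of Ifng at 4 w was then 1.00 (adjusted p = 0.362).

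In B6 mice 0 of the 9 genes were called higher by limma at any time. At 2 w 0 of 9 were called in either direction, and 1 had an unadjusted p under 0.05, with 7.74% of all probes called lower, although that group had 1 sample. At 4 w 8 of 9 were lower than at 0 w, against 9.66% of all probes, with a median change of -0.92 beside -0.04 over all probes. With normexp background correction 1 of 9, Nkg7, stayed called at 4 w, and the change of Ifng was -0.33 (adjusted p = 1). Of all 22939 probes 56 were then called lower, against 2217 in the main fit. At 9 w, a group of 1 sample whose spread was taken from the other groups, 7 of 9 were lower, against 3.86% of all probes. At 8 w 6 of 9 were lower, against 10.2% of all probes, a direction that turned for 8 of 9 genes when the arrays were not scaled, where the median of all probes was itself 0.98 higher than at 0 w. When each B6 pair was counted as 1 sample, which was chosen after seeing the data, fewer of the 9 genes stayed called at 4, 8 and 9 w. Fewer of all probes were called lower in that setting too.

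**Figure D2:**
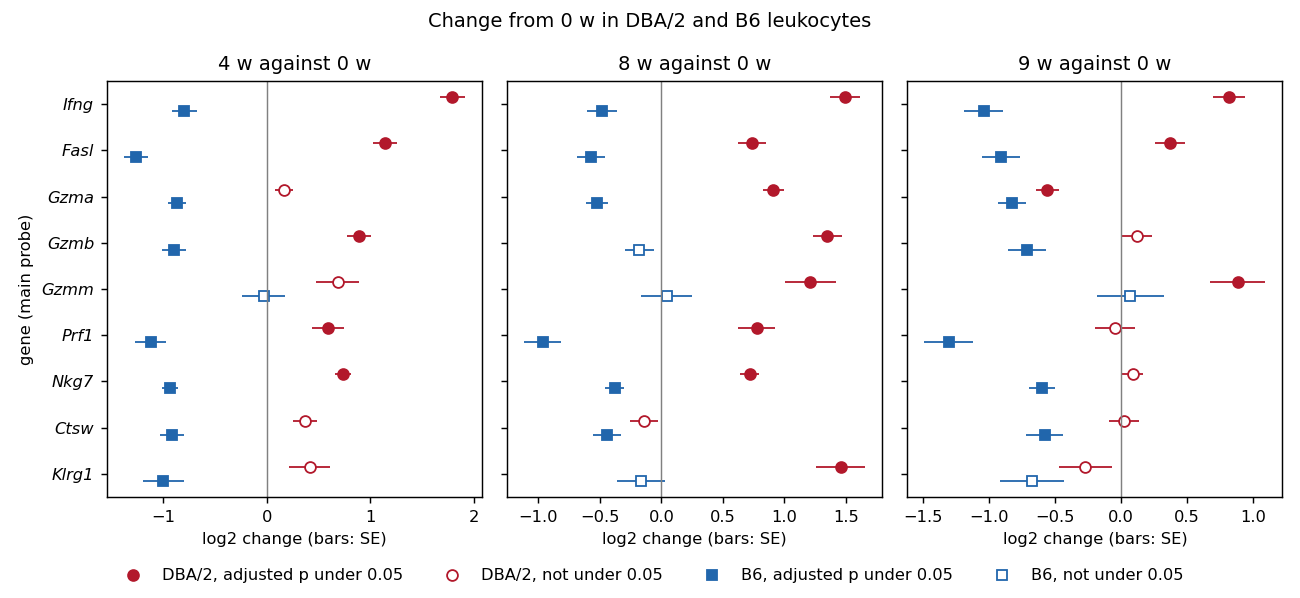
Log2 change from 0 w (horizontal axis, bars are the SE of the fit) for each gene after 4, 8 and 9 weeks in DBA/2 mice (circles) and B6 mice (squares), filled where the adjusted p was under 0.05. At 4 w the 9 DBA/2 estimates lie between 0.17 and 1.79 and the B6 estimates between -1.26 and -0.03. The B6 estimates at 8 w turned positive without scaling for Ifng, Fasl, Gzma, Gzmb, Prf1, Nkg7, Ctsw and Klrg1, and the DBA/2 estimate of Fasl at 9 w turned to -0.08.

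Ifng, the cytokine of the group, had the largest rise of the 9 genes at 4 w. The Ifng scaled signal in DBA/2 mice was 36.1 and 31.4 in the samples at 0 w, 39.6 and 36.0 at 2 w, 126 and 107 at 4 w, 103 and 86.9 at 8 w and 60.5 and 57.8 at 9 w. All 4 samples at 4 w and 8 w lay above those at the other times, and the samples at 0 w and 2 w overlapped. Ifng rose by 1.79 ± 0.12 (adjusted p = 1.5e-05) at 4 w, a 3.46-fold increase, and by 1.49 ± 0.12 (adjusted p = 2.6e-05) at 8 w. Within the slide of each replicate number the change at 4 w was 1.81 and 1.77. At 9 w it was still 0.81 above 0 w (adjusted p = 0.00104) and had fallen by 0.68 ± 0.12 from 8 w (adjusted p = 0.00545), a direction that turned to 0.24 with normexp background correction, where the median of all probes was 0.85 higher at 9 w.

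The Ifng signal in B6 mice was 87.0 and 83.5 at 0 w, 73.8 at 2 w, 50.9 and 47.5 at 4 w, 63.1 and 59.1 at 8 w and 41.5 at 9 w. Every later sample lay below both samples at 0 w. Ifng changed by -0.80 ± 0.12 (adjusted p = 0.00246) at 4 w, and counting the B6 pairs as 1 sample ended this call (adjusted p = 0.133). The second Ifng probe, with 10 spots on the array, was well above background in 16 of 18 samples and moved the same way at 4 w in both strains, by 1.97 in DBA/2 mice and -1.18 in B6 mice. In B6 mice at 8 w it was not called (-0.09, adjusted p = 0.68), while the main probe was called lower (-0.48, adjusted p = 0.0202).

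Fasl, which encodes the death-inducing ligand of the receptor Fas, had the highest correlation with Ifng of the other genes over the DBA/2 samples (r = 0.942). Over the B6 samples that of Prf1 was the highest (r = 0.95, against 0.908 for Fasl). The Fasl scaled signal in DBA/2 mice was 34.9 and 29.6 in the samples at 0 w, 43.2 and 37.6 at 2 w, 74.8 and 67.3 at 4 w, 57.7 and 49.8 at 8 w and 41.9 and 41.2 at 9 w. The samples at 4 w were the highest, and those at 2 w, 8 w and 9 w all lay above those at 0 w. Fasl rose by 1.14 ± 0.12 (adjusted p = 0.00019) at 4 w, a 2.21-fold increase, and by 0.74 ± 0.12 (adjusted p = 0.0014) at 8 w. The change within each slide at 4 w was 1.10 and 1.19. The difference of 0.37 ± 0.12 (adjusted p = 0.0391) at 9 w lost its call when any of 9 samples was left out and turned to -0.08 without scaling.

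The Fasl signal in B6 mice was 47.6 and 44.8 at 0 w, 42.6 at 2 w, 18.8 and 19.8 at 4 w, 31.3 and 30.7 at 8 w and 24.6 at 9 w. The samples at 4 w were the lowest and those at 0 w the highest. Fasl changed at 4 w by -1.26 ± 0.12 (adjusted p = 0.00012), the largest fall of the 9 genes at that time. The second Fasl probe was well above background in 2 of 18 samples, was called in none of the comparisons, and its B6 estimate at 9 w had the other sign (0.67, adjusted p = 0.517).

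Gzma encodes granzyme A, a tryptase of NK cells and effector T cells. The Gzma scaled signal in DBA/2 mice was 466 and 525 in the samples at 0 w, 606 and 587 at 2 w, 549 and 563 at 4 w, 897 and 964 at 8 w and 333 and 339.5 at 9 w. The samples at 8 w were the highest and those at 9 w the lowest. The difference of Gzma from 0 w was 0.17 ± 0.09 (adjusted p = 0.26) at 4 w. Gzma rose by 0.91 ± 0.09 (adjusted p = 7.4e-05) at 8 w, and lay -0.56 ± 0.09 (adjusted p = 0.00133) from the 0 w level at 9 w. The step from 4 w to 8 w was 0.74 ± 0.09 (adjusted p = 0.00157) and that from 8 w to 9 w -1.47 ± 0.09 (adjusted p = 4.3e-05). Within each slide the change at 8 w was 0.94 and 0.88. The Gzma signal in B6 mice was 748 and 793 at 0 w, 839 at 2 w, 405 and 445 at 4 w, 526 and 544 at 8 w and 435 at 9 w, and the lowest samples were those at 4 w and 9 w. Its B6 change at 4 w was -0.86 ± 0.09 (adjusted p = 0.00022).

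Gzmb encodes granzyme B, which cleaves caspases and so triggers apoptosis. The Gzmb scaled signal in DBA/2 mice was 50.9 and 46.6 in the samples at 0 w, 73.2 and 66.5 at 2 w, 99.0 and 82.5 at 4 w, 134 and 115 at 8 w and 56.2 and 49.9 at 9 w. The samples rose above those at 0 w at 2 w, again at 4 w and again at 8 w without overlap, and those at 9 w overlapped with 0 w. The changes from 0 w were 0.52 ± 0.12 (adjusted p = 0.0159) at 2 w, 0.89 ± 0.12 (adjusted p = 0.00096) at 4 w and 1.35 ± 0.12 (adjusted p = 3.9e-05) at 8 w, the last a 2.55-fold increase. From 8 w to 9 w Gzmb changed by -1.23 ± 0.12 (adjusted p = 0.0003). With normexp background correction, where the median of all probes was 0.85 higher at 9 w, this value was -0.03 (adjusted p = 0.944). The call at 2 w was lost without DBA/2 2 w replicate 1 (adjusted p = 0.0994) and without DBA/2 0 w replicate 2 (adjusted p = 0.101).

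The Gzmb signal in B6 mice was 256 and 254 at 0 w, 292 at 2 w, 140.2 and 135 at 4 w, 228 and 221 at 8 w and 156 at 9 w. Every B6 sample lay above every DBA/2 sample. At 0 w the DBA/2 level was -2.39 ± 0.12 (adjusted p = 6.8e-07) relative to B6 mice, the largest strain difference of the 9 genes at that time. The DBA/2 level of Gzmb was also lower at 4 w (-0.60 ± 0.12, adjusted p = 0.00329). The difference at 8 w was -0.86 ± 0.12 (adjusted p = 0.00056), and the sign at 4 w turned to 0.20 without scaling. In B6 mice themselves it changed by -0.89 ± 0.12 (adjusted p = 0.00108) at 4 w.

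Gzmm, the granzyme of NK cells and other innate lymphocytes, was called higher as early as 2 w, as was Gzmb. The Gzmm scaled signal in DBA/2 mice was 32.6 and 24.0 in the samples at 0 w, 62.7 and 61.2 at 2 w, 46.7 and 43.5 at 4 w, 68.5 and 61.4 at 8 w and 60.9 and 43.8 at 9 w. All samples from 2 w on lay above both samples at 0 w. Gzmm changed by 1.15 ± 0.21 (adjusted p = 0.00589) at 2 w, 0.69 ± 0.21 (adjusted p = 0.0559) at 4 w, 1.21 ± 0.21 (adjusted p = 0.00249) at 8 w and 0.88 ± 0.21 (adjusted p = 0.0118) at 9 w. The call at 9 w was lost without DBA/2 9 w replicate 1 (adjusted p = 0.0657) and without DBA/2 0 w replicate 2 (adjusted p = 0.0873). The Gzmm signal in B6 mice was 38.4 and 27.3 at 0 w, 32.5 at 2 w, 30.2 and 33.4 at 4 w, 31.6 and 35.2 at 8 w and 34.0 at 9 w. The 2 samples at 0 w spanned all others, and Gzmm was called in 0 of the B6 comparisons with 0 w, with unadjusted p-values between 0.789 and 0.989.

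Prf1 encodes perforin, the pore-forming protein. The Prf1 scaled signal in DBA/2 mice was 72.0 and 67.2 in the samples at 0 w, 69.4 and 58.4 at 2 w, 112 and 98.6 at 4 w, 126 and 113 at 8 w and 68.7 and 66.0 at 9 w. The samples at 4 w and 8 w lay above all others, and those at 0 w, 2 w and 9 w overlapped. Prf1 rose by 0.59 ± 0.15 (adjusted p = 0.0278) at 4 w and 0.78 ± 0.15 (adjusted p = 0.00477) at 8 w, and fell by 0.82 from 8 w to 9 w (adjusted p = 0.00618), which turned to 0.09 with normexp background correction. The call at 4 w was lost when either sample at 0 w or either sample at 4 w was left out, with adjusted p between 0.0659 and 0.138. The Prf1 signal in B6 mice was 181 and 171 at 0 w, 143 at 2 w, 93.5 and 70.0 at 4 w, 96.5 and 83.9 at 8 w and 71.2 at 9 w. All B6 samples from 4 w on lay below those at 0 w and 2 w, and the change was -1.12 ± 0.15 (adjusted p = 0.00123) at 4 w.

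Nkg7 encodes a membrane protein of cytotoxic granules that takes part in their release. The Nkg7 scaled signal in DBA/2 mice was 462 and 434 in the samples at 0 w, 524 and 486 at 2 w, 773 and 719 at 4 w, 742 and 733 at 8 w and 487 and 464 at 9 w. The samples at 4 w and 8 w were the highest. Nkg7 rose by 0.74 ± 0.08 (adjusted p = 0.00025) at 4 w and 0.72 ± 0.08 (adjusted p = 0.00015) at 8 w, and was at 0.09 ± 0.08 (adjusted p = 0.462) at 9 w. The Nkg7 signal in B6 mice was 915 and 923 at 0 w, 804 at 2 w, 484 and 478 at 4 w, 684 and 727 at 8 w and 607 at 9 w, lowest at 4 w, where it had changed by -0.93 ± 0.08 (adjusted p = 6.5e-05). The second Nkg7 probe was called higher in DBA/2 mice, by 0.82 at 4 w and 1.03 at 8 w, and in B6 mice it changed by -1.06 at 4 w.

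Ctsw, which encodes cathepsin W, a cysteine protease of cytotoxic lymphocytes, was the member whose change was not called in DBA/2 mice at 8 w. The Ctsw scaled signal in DBA/2 mice was 206 and 212 in the samples at 0 w, 209 and 211 at 2 w, 285 and 256 at 4 w, 201 and 178 at 8 w and 189 and 237 at 9 w. The samples at 4 w were the highest and those at 8 w lay just below those at 0 w. The change was 0.37 ± 0.12 (adjusted p = 0.0594) at 4 w and -0.14 ± 0.12 (adjusted p = 0.446) at 8 w, and the step between them was -0.51 ± 0.12 (adjusted p = 0.0262). The Ctsw signal in B6 mice was 412 and 422 at 0 w, 305 at 2 w, 231 and 211 at 4 w, 306 and 307 at 8 w and 279.6 at 9 w. The samples at 0 w were the highest, and the change at 4 w was -0.92 ± 0.12 (adjusted p = 0.00085), which was no longer called with the B6 pairs counted as 1 sample (adjusted p = 0.0843).

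Klrg1 encodes an inhibitory lectin-like receptor that marks terminally differentiated effector T cells and mature NK cells. The Klrg1 scaled signal in DBA/2 mice was 53.2 and 46.4 in the samples at 0 w, 75.9 and 63.4 at 2 w, 72.4 and 60.8 at 4 w, 147 and 127 at 8 w and 36.2 and 46.8 at 9 w. The samples at 8 w lay far above all others. Klrg1 changed by 0.42 ± 0.20 (adjusted p = 0.217) at 4 w and 1.46 ± 0.20 (adjusted p = 0.00064) at 8 w, a 2.75-fold increase, and then by -1.73 ± 0.20 (adjusted p = 0.00071) from 8 w to 9 w. With normexp background correction the change of Klrg1 from 8 w to 9 w was -0.22 (adjusted p = 0.58). Within each slide the change at 8 w was 1.47 and 1.45. The Klrg1 signal in B6 mice was 74.5 and 61.9 at 0 w, 90.6 at 2 w, 40.4 and 28.6 at 4 w, 60.7 and 60.3 at 8 w and 42.6 at 9 w, with the lowest samples at 4 w. Its B6 change at 4 w was -0.997 ± 0.20 (adjusted p = 0.00932) and lost its call without B6 0 w replicate 1 (adjusted p = 0.0731) or B6 4 w replicate 2 (adjusted p = 0.0684).

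The steps between weeks in DBA/2 mice were fitted as well. From 2 w to 4 w 4 of 9 genes rose, namely Ifng (1.62 ± 0.12, adjusted p = 9.8e-05), Fasl (0.82 ± 0.12, adjusted p = 0.00211), Prf1 (0.72 ± 0.15, adjusted p = 0.016) and Nkg7 (0.56 ± 0.08, adjusted p = 0.0019), against 4.81% of all probes. From 4 w to 8 w the genes called higher were Gzma, Klrg1 (1.04 ± 0.20, adjusted p = 0.0137) and Gzmb (0.46 ± 0.12, adjusted p = 0.0427), which made 3 of 9 against 3.54% of all probes. Gzmb had already changed by 0.37 ± 0.12 (adjusted p = 0.0855) from 2 w to 4 w, and the difference between the steps was not tested. Ctsw was the 1 of 9 that fell from 4 w to 8 w, against 4.83% of all probes. The call of Prf1 from 2 w to 4 w was lost without DBA/2 4 w replicate 1 (adjusted p = 0.0965) and without DBA/2 2 w replicate 2 (adjusted p = 0.129). From 4 w to 8 w the call of Gzmb was lost in 13 of 18 fits that left out 1 sample (adjusted p up to 0.24). In that step the call of Klrg1 was lost without either sample at 8 w or replicate 2 at 4 w, and that of Ctsw without any one of the 4 samples. With normexp background correction every called step from 2 w to 4 w and from 4 w to 8 w kept its direction and lost its call. From 2 w to 4 w the values were then 0.85 for Ifng (adjusted p = 0.675), 0.50 for Nkg7 (adjusted p = 0.153), 0.38 for Prf1 and 0.315 for Fasl. From 4 w to 8 w they were 0.66 for Gzma (adjusted p = 0.114), 0.68 for Klrg1, 0.33 for Gzmb and -0.44 for Ctsw (adjusted p = 0.483). Ifng and Fasl were lower at 8 w than at 4 w by amounts that were not called (-0.30 ± 0.12, adjusted p = 0.187 and -0.41 ± 0.12 (adjusted p = 0.0619)).

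The course of each gene was compared with that of Ifng by fitting its log2 signal minus that of Ifng on the same array. At 4 w all 8 other genes had risen less than Ifng in DBA/2 mice, by between -0.65 ± 0.09 (adjusted p = 5.3e-05) for Fasl and -1.62 ± 0.17 (adjusted p = 8.4e-06) for Gzma. Of all probes 89.5% were also below Ifng. With normexp background correction the call of Nkg7 at 4 w was lost (-0.32, adjusted p = 0.356). At 8 w 5 of 8 were below Ifng, against 85.7% of all probes. The 3 that were not called below it were Klrg1 (-0.04 ± 0.16, adjusted p = 0.839), Gzmb (-0.15 ± 0.08, adjusted p = 0.101) and Gzmm (-0.28 ± 0.19, adjusted p = 0.172). Normexp ended the calls of Gzma (-0.01, adjusted p = 0.965) and Nkg7 (-0.14, adjusted p = 0.674) at 8 w.

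Between 4 w and 8 w 5 of 8 genes gained on Ifng, against 16.1% of all probes. Klrg1 gained most (1.34 ± 0.16, adjusted p = 0.00102), then Gzma (1.04 ± 0.17, adjusted p = 0.00375), Gzmm (0.82 ± 0.19, adjusted p = 0.0157), Gzmb (0.75 ± 0.08, adjusted p = 0.00052) and Prf1 (0.48 ± 0.11, adjusted p = 0.0175). Fasl (-0.11 ± 0.09, adjusted p = 0.487), Nkg7 (0.28 ± 0.11, adjusted p = 0.113) and Ctsw (-0.22 ± 0.14, adjusted p = 0.355) were not called. With normexp background correction Klrg1 kept its call. The calls of Gzma (0.85, adjusted p = 0.362), Gzmb (0.51, adjusted p = 0.173), Gzmm (0.46, adjusted p = 0.28) and Prf1 (0.34, adjusted p = 0.321) were then lost. Those of Gzmm and Prf1 were also lost with no filter on dim probes, and that of Gzmm with the slide as a block (adjusted p = 0.0555). At 9 w 7 of 8 were below Ifng relative to 0 w, against 56.7% of all probes, and Gzmm was the one that was not (0.07 ± 0.19, adjusted p = 0.755). Normexp ended the calls of Gzmb (-0.30, adjusted p = 0.0888) and Fasl (-0.12, adjusted p = 0.565) at 9 w. In B6 mice at 4 w Fasl (-0.47 ± 0.09, adjusted p = 0.00133) and Prf1 (-0.32 ± 0.11, adjusted p = 0.031) had fallen further than Ifng, and Gzmm stood above it (0.77 ± 0.19, adjusted p = 0.00605). The sign for Fasl turned to 0.05 with normexp background correction and to 0.23 with the mean of the gene's probes. The call of Prf1 was lost without B6 0 w replicate 1 (adjusted p = 0.105), B6 0 w replicate 2 (adjusted p = 0.0893) or B6 4 w replicate 2 (adjusted p = 0.242), and also with normexp, with no filter on dim probes, with the mean of the gene's probes, with B6 samples alone and with the B6 pairs counted as 1 sample. That of Gzmm was lost with normexp (adjusted p = 0.262) and without B6 0 w replicate 2 (adjusted p = 0.0538).

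**Figure D3:**
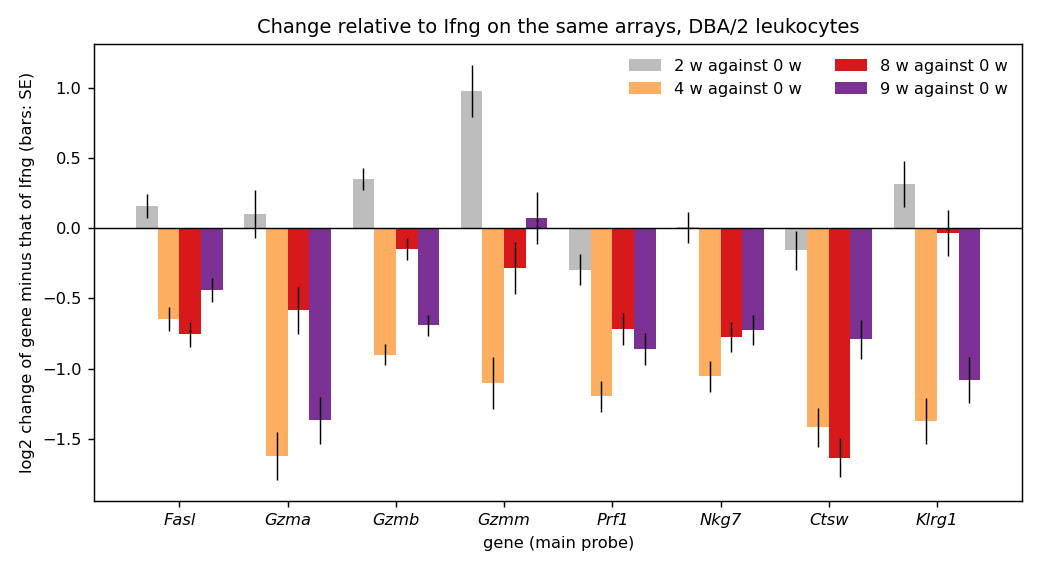
Log2 change from 0 w of each gene minus that of Ifng on the same arrays (vertical axis, bars are the SE of the fit) in DBA/2 mice after 2, 4, 8 and 9 weeks. At 4 w every gene lies below 0, from -0.65 for Fasl to -1.62 for Gzma, and at 8 w Klrg1 lies at -0.04.

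Across the 10 DBA/2 samples, 4 of the 9 other genes correlated with Ifng, with 18 relations over both strains adjusted together and Gzmk included. For Fasl Pearson's r was 0.942 (permutation p = 1e-05, adjusted p = 0.00018) and Spearman's rho 0.952 (permutation p = 7e-05, adjusted p = 0.00126), and 1e-05 is the smallest p that the resamples can give. For Nkg7 Pearson's r was 0.913 (permutation p = 0.00195, adjusted p = 0.0117) and Spearman's rho 0.879 (permutation p = 0.00176, adjusted p = 0.0106). For Prf1 Pearson's r was 0.872 (permutation p = 0.00396, adjusted p = 0.0125) and Spearman's rho 0.733 (permutation p = 0.0199, adjusted p = 0.0356). The highest sample was at 4 w for Fasl and Nkg7 and at 8 w for Prf1. For Nkg7 the samples at 4 w and 8 w overlapped, and its second probe was highest at 8 w (364 and 320, against 307 and 281 at 4 w).

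For Gzmb Pearson's r was 0.767 (permutation p = 0.0136, adjusted p = 0.0244) and Spearman's rho 0.746 (permutation p = 0.0174, adjusted p = 0.0356). Without the 2 samples farthest from the Ifng median, r was 0.911 for Fasl, 0.866 for Nkg7, 0.858 for Prf1 and 0.692 for Gzmb, the last with an adjusted p of 0.0868 by permutation. With normexp background correction the relation of Nkg7 was lost (r = 0.36, adjusted p = 0.347 by permutation). For Gzma Pearson's r was 0.333 (permutation p = 0.338, adjusted p = 0.381) and Spearman's rho 0.224 (permutation p = 0.537, adjusted p = 0.604), which did not pass. In the 8 B6 samples 7 of 9 relations passed an exact permutation test, with r up to 0.95 for Prf1, and those of Gzmm and Gzmk did not. With normexp the B6 relations of Gzma (r = 0.578), Gzmb (r = 0.661), Nkg7 (r = 0.364) and Ctsw (r = 0.464) were lost, with adjusted p between 0.117 and 0.376 by the exact permutation test. That of Klrg1 was lost without the 2 samples farthest from the Ifng median (r = 0.823, adjusted p = 0.0646 by the exact permutation test). The samples are pairs from a few time points and not independent in time, and no slide held more than 4 samples of a strain, too few for a relation within slides.

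The strains were then compared at the same times. At 0 w 7 of 9 genes were lower in DBA/2 mice than in B6 mice, against 15.4% of all probes, and of these 7 the sign for Gzma and Fasl turned without scaling, to 0.19 and 0.32. Besides Gzmb, the larger differences were in Ifng (-1.34 ± 0.12, adjusted p = 3.3e-05), Prf1 (-1.34 ± 0.15, adjusted p = 0.00013) and Nkg7 (-1.04 ± 0.08, adjusted p = 9.6e-06). At 4 w 5 of 9 were higher in DBA/2 mice, against 19.1% of all probes, led by Fasl (1.88 ± 0.12, adjusted p = 2.2e-06) and Ifng (1.25 ± 0.12, adjusted p = 4.6e-05), and 1 of 9, Gzmb, was lower, against 13.0% of all probes. The sign for Klrg1 at 4 w turned to -0.07 with normexp background correction. The calls of Fasl (0.11, adjusted p = 0.82) and Ifng (0.36, adjusted p = 0.416) at 4 w were then lost. Those of Gzma (0.30, adjusted p = 0.228) and Gzmb (-0.61, adjusted p = 0.304) were lost too, and Nkg7 kept its call. At 8 w 5 of 9 were higher, against 10.4% of all probes, and Klrg1 had the largest of these differences (1.18 ± 0.20, adjusted p = 0.00197). The 2 of 9 that were lower in DBA/2 mice at 8 w were Gzmb and Ctsw (-0.70 ± 0.12, adjusted p = 0.00174), against 15.0% of all probes. With normexp Gzma and Ctsw kept their calls at 8 w. Those of Klrg1 (0.85, adjusted p = 0.335), Ifng (0.52, adjusted p = 0.762), Fasl (0.51, adjusted p = 0.895), Gzmm (0.50, adjusted p = 0.912) and Gzmb (-0.58, adjusted p = 0.7) were lost.

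The change from 0 w to the mean of 4 w and 8 w was compared between the strains in one test for each gene. It was larger in DBA/2 mice for 9 of 9 genes, against 6.48% of all probes. Ifng differed most (2.28 ± 0.15, adjusted p = 2.4e-05), followed by Fasl (1.86 ± 0.14, adjusted p = 5.4e-05), Prf1 (1.73 ± 0.18, adjusted p = 0.00038) and Gzmb (1.66 ± 0.14, adjusted p = 0.00011). Gzmm passed by the least (0.94 ± 0.26, adjusted p = 0.0398), and its call was lost when most single samples were left out, with the slide as a block (adjusted p = 0.157) and with the B6 pairs counted as 1 sample (adjusted p = 0.167). The last setting also ended the call of Ctsw (adjusted p = 0.0967). With normexp background correction all 9 kept their direction but 2 of 9, Gzma and Nkg7, stayed called. Of all 22939 probes 76 were then called higher, against 1486 in the main fit. The difference was then 1.41 for Ifng (adjusted p = 0.322), 1.16 for Prf1 (adjusted p = 0.576) and 0.93 for Fasl (adjusted p = 0.968).

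The share of all calls that were higher moved with the scaling. It was 51.1% of 3400 calls at 4 w and 41.8% of 5500 at 8 w in DBA/2 mice, and became 87.0% and 81.5% when each array was scaled by its median. With quantile normalization it was 58.2% and 53.7%, with the percentile over all probes 68.7% and 62.6%, and without scaling 59.6% and 23.8%. For the strain difference it was 49.1%, and became 75.8% with the median, 84.4% with normexp background correction and 4.93% without scaling. For B6 mice at 8 w it was 51.7% and became 99.5% without scaling. Between the strains at 0 w it was 52.7%, and became 37.4% with the median, 29.0% with normexp and 93.3% without scaling. From 8 w to 9 w in DBA/2 mice it was 61.2%, and became 23.4% with the median and 84.2% with normexp. The median change of all probes moved by up to 0.29 at 8 w with the median and by 1.02 in B6 mice at 8 w without scaling. The 9 genes kept their direction at 4 w in DBA/2 mice and in the strain difference under each of these settings.

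Markers of other cells moved in the same samples, and in these bulk samples fewer cells of a type and less RNA per cell cannot be told apart. Of 11 tested T cell markers, 0 rose and 8 fell in DBA/2 mice at 8 w, with the summed signal of the list at 4791 to 4831 at 0 w and 3133 to 3145 at 8 w. Of all 22939 probes 2298 were called higher and 3202 lower in that comparison. Of 7 tested NK cell markers, 3 rose and 0 fell at 4 w and at 8 w, namely Klrb1c, Klrk1 and Ncr1, while the summed signal was 1076 to 1077 at 0 w, 1103 to 1124 at 4 w and 1079 to 1130 at 8 w. At 9 w 4 NK cell markers were lower than at 0 w, against 14.3% of all probes. The sum was then 677 to 685, beside the falls of the effector genes from 8 w. In B6 mice at 4 w 5 of 7 NK cell markers fell, against 9.66% of all probes, and the sum went from between 1616 and 1670 to between 1073 and 1079.

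Of 7 neutrophil markers, 7 rose in DBA/2 mice and 6 in B6 mice at 8 w, where 2298 and 2514 of all 22939 probes were called higher. The summed signals were 39180 to 39560 at 0 w and 259200 to 289100 at 8 w in DBA/2 mice, and 20700 to 20750 and 158500 to 159200 in B6 mice. The 6 monocyte markers rose in DBA/2 mice at 4 w (a sum of 1657 to 1708 against 587 to 623 at 0 w), beside 7.58% of all probes called higher. Of the 6 B cell markers, 5 fell in DBA/2 mice at 4 w, against 1661 of all 22939 probes. The part of these shifts in the changes of the effector genes was not tested.

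Hepatocyte markers, such as Alb and Apoa1, stood apart in B6 mice. Their summed signal was 14540 to 14880 at 0 w and 8429 to 8830 at 8 w, against 154 to 296 at the other B6 times and 137 to 333 in all DBA/2 samples, where from 5 to 7 of the 9 markers were well above background in no sample of a group. Every B6 comparison with 0 w therefore used a control that held these signals. The strain comparisons at 0 w and 8 w set B6 samples that held them beside DBA/2 samples that did not at such levels. For the step from 2 w to 4 w, in which neither B6 group held them at such levels and the B6 group at 2 w was 1 sample whose spread was taken from the other groups, the DBA/2 change exceeded the B6 change for 8 of 9 genes, from 0.83 for Ctsw to 2.21 for Ifng, against 11.6% of all probes. Gzmm was at -0.43 (adjusted p = 0.452). In DBA/2 mice themselves the step was positive for Ifng, Fasl, Prf1, Nkg7, Gzmb and Ctsw. It was -0.10 for Gzma and -0.065 for Klrg1, where the B6 step was -0.98 and -1.41. The step from 2 w to 4 w was chosen for this comparison after seeing the data.

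**Figure D4:**
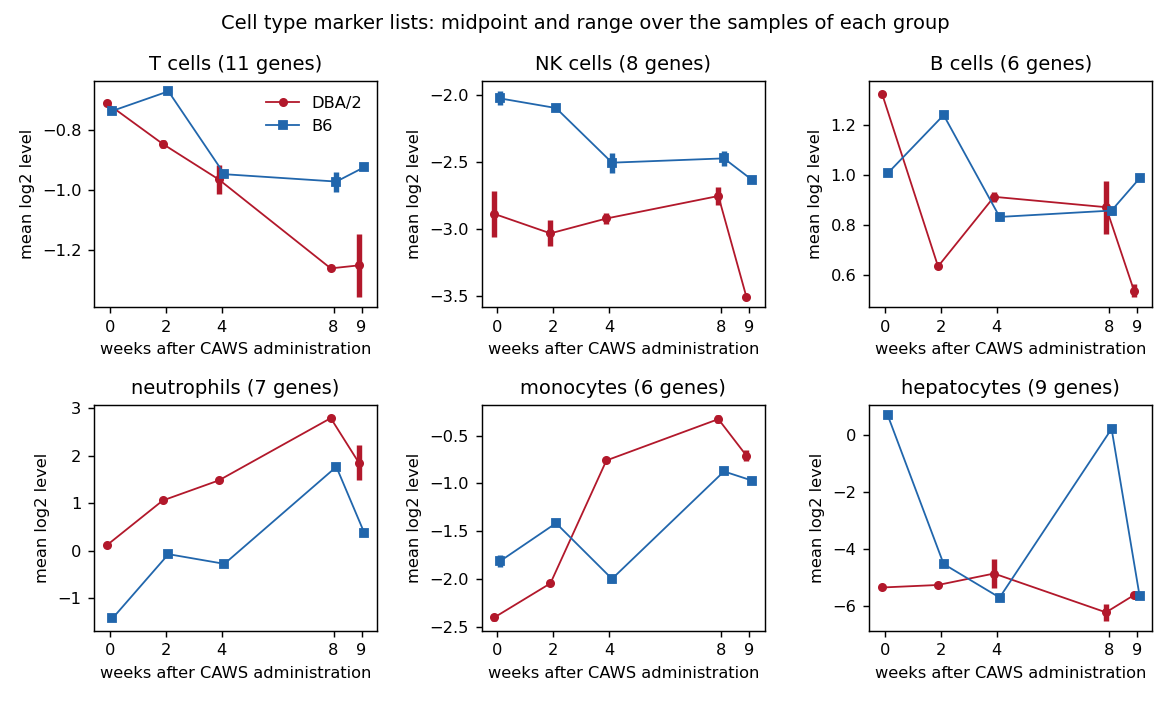
Mean normalized log2 level of 6 lists of cell type markers (vertical axis, symbols at the midpoint and bars over the range of the samples of a group) against weeks after CAWS administration in DBA/2 mice (circles) and B6 mice (squares). The hepatocyte list lies at 0.70 in the B6 samples at 0 w and near 0.21 at 8 w, and below -4 in all other groups.

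Of a list of 42 other genes of cytotoxic lymphocytes 35 were tested, of which 17 rose and 2 fell in DBA/2 mice at the mean of 4 w and 8 w, against 9.80% and 13.1% of all probes, with a median of 0.37 beside -0.14. In B6 mice 6 rose and 13 fell, against 7.28% and 7.73% of all probes. The list holds genes that myeloid cells also express, such as Tyrobp and Ccl3, and shares Cd8a with the T cell markers and Ncr1, Klrb1c, Klrd1, Klrk1, Cd160 and Eomes with the NK cell markers.

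The 3 largest rises in the list were those of Ccl3, Tyrobp and Xcl1. Ccl3 is a chemokine of activated lymphocytes and macrophages, and its scaled signal in DBA/2 mice was 90.0 and 79.5 at 0 w, 519.6 and 461 at 4 w and 144 and 123 at 8 w (1.59 ± 0.10, adjusted p = 3.7e-06). Both pairs lay above 0 w, and in DBA/2 mice the peak fell at 4 w as for Ifng. In B6 mice Ccl3 also peaked at 4 w, at 233 and 219 against 94.4 and 88.1 at 0 w, while Ifng fell there. Tyrobp, the signalling adaptor of NK cell and myeloid receptors, went from 1138 and 1129 to 2996 and 2722 at 4 w and 4183 and 4024 at 8 w (1.59 ± 0.06, adjusted p = 2.9e-07). Its B6 signal also went up, from 1352 and 1361 at 0 w to 3635 and 3473 at 8 w. Xcl1, a chemokine secreted by NK cells and CD8 T cells, went in DBA/2 mice from 22.3 and 19.7 to 73.8 and 65.1 at 4 w and 42.8 and 39.1 at 8 w (1.34 ± 0.19, adjusted p = 0.000728). Its B6 signal went down, from 28.3 and 31.8 at 0 w to 14.0 and 8.27 at 4 w.

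The 2 genes that fell encode the chains of the CD8 co-receptor, the surface mark of cytotoxic T cells. Cd8b1 went from 542 and 539.9 at 0 w to 332 and 334 at 4 w and 310.5 and 287 at 8 w (-0.78 ± 0.07, adjusted p = 5.1e-05). Cd8a went from 186 and 163 to 153 and 111 and 126 and 107 (-0.50 ± 0.14, adjusted p = 0.0313). Both fell in the samples in which Gzmb, Prf1 and Ifng rose.

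Among 11354 probes well above background in all DBA/2 samples, the 5 genes outside the 10 whose pattern over the 10 DBA/2 samples was most like that of Ifng were Trf, which encodes transferrin and is also one of the hepatocyte markers (r = 0.984), Hspa5, a chaperone of the endoplasmic reticulum (r = 0.979), Plekhg3 (r = 0.977), Retnla, a product of alternatively activated macrophages (r = 0.976), and Ly96, the partner protein of Tlr4 (r = 0.973). These values describe the ranking, carry no test, and come from samples that share their weeks and slides. The value of Fasl was 0.942.

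Promoters of Ifng and of the genes that correlated with it are shown for reference, although the relations of Nkg7 and Gzmb did not hold in every setting. RefSeq windows of 300 bases on GRCm38.p6, from 250 bases before to 50 after the start, were found for 8 of the 10 genes, with 2 windows for Gzmm. They are given for Ifng and for Fasl, Prf1, Nkg7 and Gzmb, which correlated with it in DBA/2 mice. Capitals mark matches on either strand to a T-box motif (GGTGTGA), a RUNX motif (TGTGGT), an AP-1 motif (TGANTCA), a CRE motif (TGACGTCA) or a STAT motif (TTCNNNGAA).
Ifng, chr10:118440796-118441095, plus strand: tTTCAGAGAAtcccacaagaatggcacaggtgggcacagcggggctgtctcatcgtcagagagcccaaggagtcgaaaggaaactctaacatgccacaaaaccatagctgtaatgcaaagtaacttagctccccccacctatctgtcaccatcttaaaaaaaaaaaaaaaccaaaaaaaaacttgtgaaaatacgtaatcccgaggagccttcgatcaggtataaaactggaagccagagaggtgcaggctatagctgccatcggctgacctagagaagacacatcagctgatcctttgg
Fasl, chr1:161788446-161788745, minus strand: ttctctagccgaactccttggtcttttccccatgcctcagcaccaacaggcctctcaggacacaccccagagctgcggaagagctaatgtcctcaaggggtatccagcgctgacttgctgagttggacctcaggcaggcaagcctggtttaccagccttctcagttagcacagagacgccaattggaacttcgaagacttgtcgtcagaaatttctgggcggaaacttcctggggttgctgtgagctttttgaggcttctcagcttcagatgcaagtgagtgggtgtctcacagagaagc
Prf1, chr10:61297586-61297885, plus strand: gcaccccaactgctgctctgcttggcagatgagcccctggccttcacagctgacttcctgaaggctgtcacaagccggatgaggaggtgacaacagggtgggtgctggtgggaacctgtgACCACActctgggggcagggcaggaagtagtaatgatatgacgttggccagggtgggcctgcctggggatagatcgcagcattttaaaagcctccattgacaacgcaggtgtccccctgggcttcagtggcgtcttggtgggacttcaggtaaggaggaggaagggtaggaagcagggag
Nkg7, chr7:43436888-43437187, plus strand: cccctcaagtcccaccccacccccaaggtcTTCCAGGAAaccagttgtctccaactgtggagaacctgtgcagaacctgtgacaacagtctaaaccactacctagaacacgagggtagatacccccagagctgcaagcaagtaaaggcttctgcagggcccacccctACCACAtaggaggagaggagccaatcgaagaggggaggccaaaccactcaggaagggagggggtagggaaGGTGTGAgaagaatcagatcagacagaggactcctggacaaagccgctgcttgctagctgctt
Gzmb, chr14:56262285-56262584, minus strand: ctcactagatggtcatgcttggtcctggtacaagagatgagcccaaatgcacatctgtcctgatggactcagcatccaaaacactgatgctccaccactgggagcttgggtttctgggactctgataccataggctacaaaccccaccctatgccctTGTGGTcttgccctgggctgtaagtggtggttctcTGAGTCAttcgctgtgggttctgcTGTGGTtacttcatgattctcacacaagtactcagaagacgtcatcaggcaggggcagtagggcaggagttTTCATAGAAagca

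The Ifng window held 1 STAT match, at positions -249 to -241 counted from the start. The Prf1 window held 1 RUNX match and the Fasl window no match. The Nkg7 window held a T-box, a RUNX and a STAT match, and the Gzmb window 2 RUNX matches, 1 AP-1 match and, after the start, 1 STAT match. Of all 32851 windows of that length, 3.98% held the T-box letters, 16.8% the RUNX, 7.81% the AP-1, 1.79% the CRE and 8.3% the STAT letters. A match is a stretch of letters and not a measured site, and a window without one says only that these letters are not in it.

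Per the scanner files the main probes lie on mm8, for example at chr10:117848778-117848837 for Ifng and at chr14:55213150-55213209 for Gzmb, and whether these positions are exonic was not analysed here.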

How the data were processed

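The authors labelled leukocyte RNA with Cy3 and hybridized it to single-color Agilent G4122F arrays. The deposited scanner files hold, per spot, a processed signal, an intensity on a linear scale from Agilent Feature Extraction 9.5.3.1 (submitters' processing notes). The deposited value table holds the same intensity unscaled between arrays.

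Control and outlier spots were left out, spots of a probe were averaged, and the log2 signal minus each array's 75th percentile was tested, with that percentile taken over the 11536 probes that every one of the 19 arrays measured well above background. Both arrays of B6 0 w replicate 2 were averaged. Of 41174 probes, the 22939 that were well above background in 2 or more of the 18 samples were fitted over all 10 groups with limma 3.58.1 in R 4.3.3 (residual df 8, prior df 1.37, Benjamini-Hochberg threshold 0.05). The number of arrays limits the precision. Each gene minus Ifng was fitted likewise. Permutation tests were two-sided.

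All 10 genes are named by rule. Other named genes are the 3 largest rises and up to 3 falls called in the cytotoxic list, of which there were 2, and the 5 genes most like Ifng. Members and lists were chosen with earlier results of these data known. Tested on simulated data for the DBA/2 change from 0 w to the mean of 4 w and 8 w over 22939 probes, the fit recovered 52 of 100 probes changed 2-fold and 83 of 100 changed 4-fold, with 6 false calls. Alternatives were other background correction (normexp, offset 50), scaling, filters, blocks, strains alone and leaving out each sample.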

Additional observations from a re-analysis of the deposited data

Results flagged for a closer look

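For each of the 9 tested genes, the change from 0 w to the mean of 4 w and 8 w differed between DBA/2 and B6 mice by the limma test of the difference itself. On the log2 scale the DBA/2 change exceeded the B6 change by 2.28 for Ifng, 1.86 for Fasl, 1.73 for Prf1, 1.66 for Gzmb, 1.52 for Klrg1, 1.39 for Nkg7, 1.23 for Gzma, 0.94 for Gzmm and 0.80 for Ctsw. With normexp background correction 2 of the 9 differences, those of Gzma and Nkg7, stayed called, and that of Gzmm lost its call in 12 of 18 fits that left out 1 sample. Slide and strain cannot be told apart in the level of a strain, and the B6 samples at 0 w and 8 w held the hepatocyte signals given above, whose part in the result was not tested.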

How the results depend on the processing

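With normexp background correction the number of genes called fell to 0 at 2 w, 1 at 4 w, 2 at 8 w and 0 in either direction at 9 w in DBA/2 mice, to 2 for 9 w against 8 w, in B6 mice to 1 at 4 w and to 0 at both 8 w and 9 w, to 4 between the strains at 0 w and to 2 for the strain difference. The calls over all probes fell too, from 3400 to 295 at 4 w and from 5500 to 618 at 8 w in DBA/2 mice. Among called results, the reversed values with normexp were 0.24 for Ifng and 0.085 for Prf1 (9 w against 8 w in DBA/2 mice), -0.07 for Klrg1 (strains at 4 w) and 0.049 for Fasl relative to Ifng (B6 mice at 4 w). With median scaling, 1 gene was called in DBA/2 mice at 2 w, and for B6 mice 2 at 8 w and 4 at 9 w, and with no filter on dim probes 1, 3 and 4. Without scaling, 1 gene was called higher in DBA/2 mice at 2 w, 0 higher and 3 lower at 9 w, for B6 mice 0 lower at 8 w and 2 lower at 9 w, and 3 lower between the strains at 0 w. Among called results, its reversed values were 0.54 for Ifng, 0.50 for Gzma, 0.055 for Prf1, 0.64 for Nkg7, 0.58 for Ctsw and 0.47 for Fasl in B6 mice at 8 w, 0.19 for Gzma and 0.32 for Fasl between the strains at 0 w, 0.20 for Gzmb between the strains at 4 w and -0.083 for Fasl in DBA/2 mice at 9 w. Among called results, the mean of the gene's probes turned Fasl relative to Ifng to 0.23 in B6 mice at 4 w and 0.016 over the mean of 4 w and 8 w. The cause of these changes was not tested.

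DBA/2 samples alone gave 1 gene at 2 w, and B6 samples alone gave 4 at 9 w. With the B6 pairs counted as 1 sample, 1 was called in DBA/2 mice at 2 w and, of the B6 comparisons, 4 at 4 w, 1 at 8 w and 3 at 9 w. The strain difference of Gzmm was -0.43 in the step from 2 w to 4 w. Both settings were chosen after seeing the data.

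With the replicate number as a block, 4 genes were called in DBA/2 mice at 2 w, and with the slide as a block also 4. Same-numbered samples deviated together with r from -0.03 to 0.83 (median 0.18, over 0.1 in 23 of 28 pairs of groups). The main fit left the samples unpaired, although r was over 0.1 in most pairs of groups. For DBA/2 mice from 0 w to 8 w the number was also the slide. The slide block could not be fitted for DBA/2 mice at 9 w or for the strains at 1 time.

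Leaving out 1 sample gave 1 to 2 genes in DBA/2 mice at 2 w, 4 to 7 at 4 w, 8 at 8 w, and 1 to 3 higher and 1 lower at 9 w. For B6 mice it gave 7 to 8 at 4 w, 3 to 6 at 8 w and 5 to 7 at 9 w. It gave 6 to 7 between the strains at 0 w and 8 to 9 for the strain difference. The count at 9 w was 1 without DBA/2 9 w replicate 1 or DBA/2 0 w replicate 2, that at 2 w was 1 without DBA/2 2 w replicate 1 or DBA/2 0 w replicate 2, and that in B6 mice at 8 w was 3 without B6 8 w replicate 1. A sample left alone in its group was assumed to vary like the others. Signal over background limited Gzmk and the second Fasl probe.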
